A study of Mus musculus with 4 samples.

Results

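The glycolysis and lactate genes comprise 34 mouse genes, from the glucose transporters through the glycolytic enzymes to the lactate transporters and the kinases that hold pyruvate back from the mitochondria. They were measured in regulatory T cells, the CD4 T cells that restrain immune responses under the transcription factor Foxp3. A member had a value where the array's annotation gave a transcript cluster (the probes summarised as 1 transcript) exactly 1 gene symbol and that symbol was the member's. This held for 30 of the 34, among 29860 genes measured in the same way. Gpi1, Pfkfb1 and Eno1 were named on no cluster and were not analysed here, and Pfkfb2 lay on a cluster shared with the pseudogene C4bp-ps1.

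Expression was read on 4 arrays of sorted Foxp3 GFP+ cells from spleens of C57BL/6 mice aged 7 to 8 weeks, with 15000 to 40000 cells a sample. In 2 samples labelled KO (replicates 1 and 2), the Foxp3-driven EGFP and Cre transgene B6-Tg(Foxp3EGFP-cre)1cJbs/J was crossed to BMI1-flox, which would delete Bmi1, a Polycomb repressive complex 1 subunit, in cells that express Foxp3. In 2 samples labelled WT (replicates 1 and 3), the mice carried the same transgene without the floxed allele, so both groups make Cre. The titles and the treatment field give unstimulated cells, whereas the series text describes a day of CD3 and CD28 stimulation and calls the animals BMI1-/-. Which of these applies is not settled, and the labels do not give the number of floxed alleles. Nothing says whether the samples came from separate or pooled animals, and the spread between these samples, the only one that the p-values reflect, may be technical. The number of arrays limits the precision.

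Glycolysis splits glucose into pyruvate in the cytosol. Pyruvate is then either reduced to lactate and exported or oxidised in mitochondria through pyruvate dehydrogenase. Most steps have several isozymes, each from its own gene, which differ in tissue and in regulation. In T cells the pathway is known to increase on activation, driven in part by Myc, mTOR and the hypoxia-inducible factor HIF-1, and Foxp3 is known to favour oxidative metabolism over glycolysis.

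Bmi1, the targeted gene, had values of 9.58 and 9.91 in the arrays labelled KO and 8.98 and 8.98 in the arrays labelled WT (log2 values). The higher values thus carry the KO label. Whether the cluster reads the deleted part is not stated, so directions rest on the labels alone. Ctla4, an inhibitory receptor that marks these cells, read 12.45 and 12.59 in the arrays labelled KO and 12.68 and 12.27 in the arrays labelled WT, while Foxp3 had no cluster of its own. Between arrays, Pearson's r across clusters, which are not independent replicates, was 0.994 for the KO pair, 0.993 for the WT pair and 0.991 to 0.992 between groups.

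No glycolysis or lactate gene passed a Benjamini-Hochberg adjusted p under 0.05 in limma's test over all 29860 genes. Of those genes 2 passed, which is 0.0067%, or 0.0134% of the 14938 genes at or above the median gene, where 25 of the members lay. At an unadjusted limma p under 0.05, 2 of the 30 members (6.67%) had a positive difference and 0 a negative one. That compares with 10.3% of all genes in either direction (6.45% higher, 3.81% lower) and 14.6% of the genes at or above the median gene (10.4% higher, 4.18% lower). These were Eno3, the muscle-type enolase, and Pfkp, the platelet-type phosphofructokinase. For 12 members (40.0%) both KO values lay on the same side of both WT values, above them for 9 (30.0%) and below them for 3 (10.0%). Such separation was found for 38.6% of all genes (21.1% above, 17.5% below) and for 45.3% of the genes at or above the median gene (29.1% above, 16.2% below). The members' total shares thus lay near or below the background.

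The median difference (arrays labelled KO minus arrays labelled WT) was 0.04 on the log2 scale for the 30 members, 0.005 for all genes and 0.045 for the genes at or above the median gene. A positive difference was found for 19 members (63.3%) and a negative one for 11, while 51.1% of all genes and 58.0% of the genes at or above the median gene had a positive one. After a further quantile normalization the members split 16 higher to 14 lower, and after median-centring 17 to 12. No member differed by 2-fold or more. The 95% limma interval lay inside a 2-fold difference in either direction for 28 of the 30 members, Eno3 and Pdk1 being the others, and inside 0.5 on the log2 scale for 20.

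**Figure D1:**
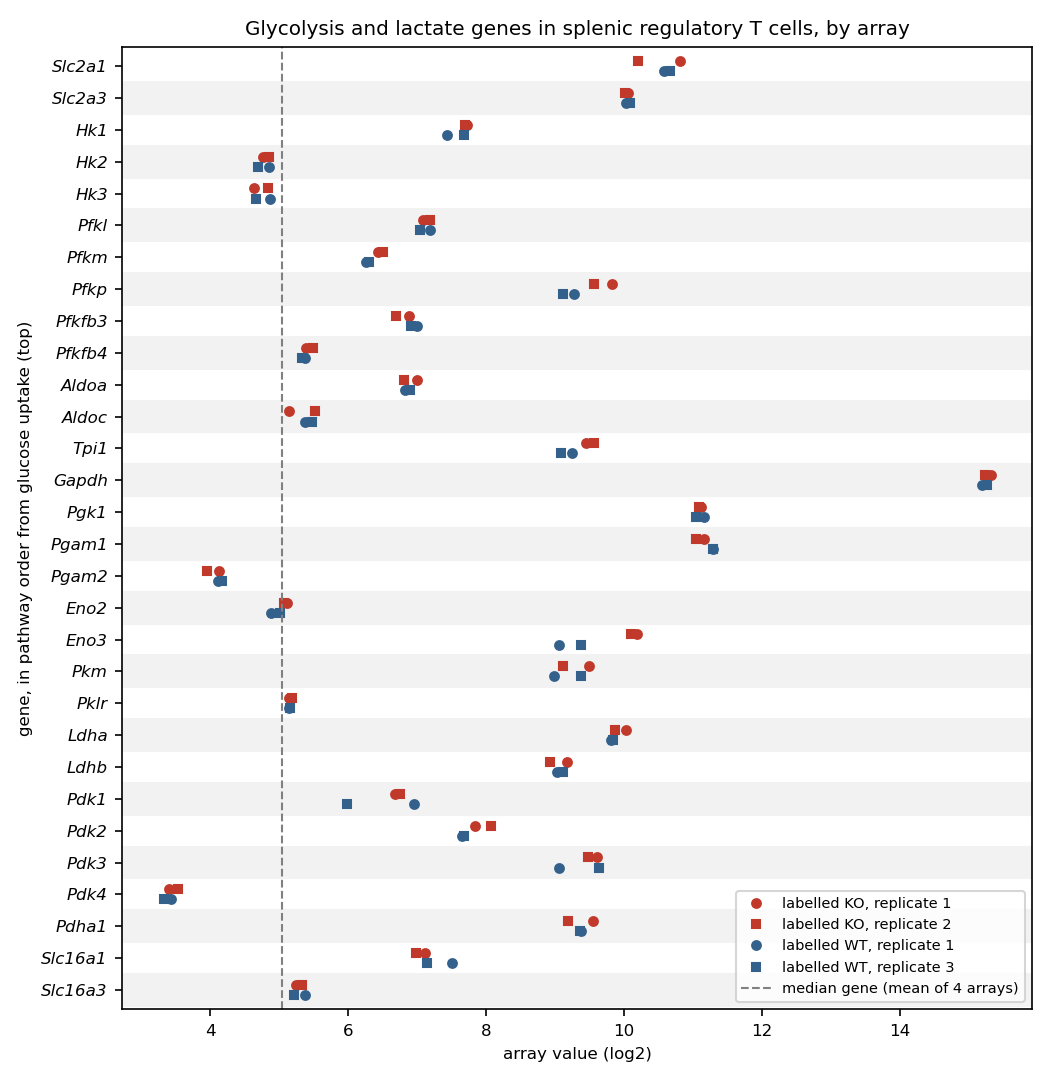
Array value (log2, x axis) of each of the 30 glycolysis and lactate genes (y axis, in pathway order) on the 2 arrays labelled KO (red) and the 2 labelled WT (blue), with the median gene as a dashed line. Eno3 and Pfkp show both red points to the right of both blue points, Pdk1 has its blue points at 6.95 and 5.98, and 5 genes lie left of the line on average.

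Isozymes of a step differed in how far above the median gene (5.04, mean of the arrays) they read. Levels of different clusters depend on their probes and are not compared as amounts, and the table has no background measure, so a gene below the median gene may have understated differences. The 5 members below it were Hk2 and Hk3, Pgam2, Eno2 and Pdk4, whose means over the arrays lay at the 45.9th, 45.1st, 25.7th, 49.8th and 5.32nd percentile of all genes. Hk1, Pgam1, Eno3 and Pdk3, isozymes of the same steps, lay at the 74.0th, 92.5th, 86.7th and 85.5th percentile. Pklr, the liver and red cell pyruvate kinase, was at the 51.7th and Pkm, the muscle-type kinase of most tissues, at the 84.3rd. The cluster named Gapdh stood at the 98.3rd percentile, the highest of the members.

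Sequences around the transcription start are shown for Eno3 and Pfkp, which had the smallest p, and for Ldha, known as a target of both HIF-1 and Myc, for contrast. Capitals mark ACGTG and GCGTG, the core letters that HIF-1 prefers, on either strand (CACGT and CACGC read backwards), and CACGTG, the E-box of Myc, which contains ACGTG. The sequences are from RefSeq (GRCm38.p6), 250 bases before to 50 after an annotated transcript start, 5′ to 3′ on the gene's strand. The starts used for Eno3 and Pfkp lie inside the gene's annotated span, and other starts of these genes were not examined. The Eno3 window is chr11:70656926-70657225 on the plus strand, the Pfkp window chr13:6648722-6649021 on the minus strand and the Ldha window shown, 1 of 2, chr7:46845554-46845853 on the plus strand.
Eno3: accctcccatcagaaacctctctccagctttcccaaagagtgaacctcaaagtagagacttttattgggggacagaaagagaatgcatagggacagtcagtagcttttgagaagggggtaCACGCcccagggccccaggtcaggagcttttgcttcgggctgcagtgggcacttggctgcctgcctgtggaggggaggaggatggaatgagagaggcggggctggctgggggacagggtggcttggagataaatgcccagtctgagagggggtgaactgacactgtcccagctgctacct
Pfkp: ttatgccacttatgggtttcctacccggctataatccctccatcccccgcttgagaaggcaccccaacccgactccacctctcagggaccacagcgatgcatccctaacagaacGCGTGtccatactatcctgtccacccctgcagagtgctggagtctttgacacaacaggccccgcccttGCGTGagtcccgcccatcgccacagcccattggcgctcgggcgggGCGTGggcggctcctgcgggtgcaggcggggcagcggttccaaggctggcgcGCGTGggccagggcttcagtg
Ldha: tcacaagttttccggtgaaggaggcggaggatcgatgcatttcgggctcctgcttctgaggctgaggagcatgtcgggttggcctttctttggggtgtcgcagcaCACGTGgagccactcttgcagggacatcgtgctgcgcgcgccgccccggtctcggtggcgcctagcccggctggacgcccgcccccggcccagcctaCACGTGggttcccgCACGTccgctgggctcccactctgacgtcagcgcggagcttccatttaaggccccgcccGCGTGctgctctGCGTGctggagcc

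The Eno3 window held 1 GCGTG, read backwards, 130 bases before the start. The Pfkp window held GCGTG 136, 68 and 23 bases before the start and 29 bases after it. Neither held ACGTG or CACGTG. The Ldha window shown held CACGTG at 145 and 48 bases before the start, a further ACGTG read backwards at 34 bases, and GCGTG at 25 and 37 bases after the start. The other Ldha window (chr7:46846832-46847131) held GCGTG 59 bases before, read backwards, and 40 bases after its start, and neither ACGTG nor CACGTG. These matches describe letters and not binding.

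Such windows were found for 29 of the 30 members. ACGTG was present for 17 of the 29 members (58.6%) in at least 1 of their windows, against 23.2% of the 17491 protein-coding genes with a window and 19.6% of the 32851 windows. GCGTG was present for 18 members (62.1%), against 41.4% of those genes and 32.4% of the windows. CACGTG was present for 5 members (Pfkm, Pfkfb3, Ldha, Pdk2 and Slc16a1; 17.2%), against 8.91% of those genes and 7.15% of the windows. Several members have more than 1 window, and windows rich in G and C hold these letters more readily, for which the shares were not corrected.

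Glucose enters T cells mainly through the facilitative transporters encoded by Slc2a1 (GLUT1) and Slc2a3 (GLUT3). Slc2a1 had values of 10.81 and 10.20 in the arrays labelled KO and 10.57 and 10.66 in the arrays labelled WT. The KO arrays spanned the WT pair, and without KO replicate 2 the difference was 0.20 in place of -0.11. Slc2a3 had 10.05 and 10.01 in the arrays labelled KO and 10.02 and 10.08 in the arrays labelled WT. The values of Slc2a3 thus overlapped between groups, with a difference of -0.02 (SE 0.12, 95% interval -0.33 to 0.29).

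Hexokinases trap glucose in the cell by phosphorylation, and Hk1 is the constitutive form in most tissues. Hk1 had values of 7.72 and 7.70 in the arrays labelled KO, both just above the 7.43 and 7.68 in the arrays labelled WT. Hk2, the inducible form known to rise when T cells switch to glycolysis, had 4.77 and 4.86 in the arrays labelled KO and 4.86 and 4.69 in the arrays labelled WT. Hk3, best known from myeloid cells, had 4.64 and 4.84 in the arrays labelled KO and 4.87 and 4.67 in the arrays labelled WT. The groups overlapped for Hk2 and Hk3, both of which lay below the median gene.

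Phosphofructokinase catalyses the committed step of glycolysis as a tetramer of liver (Pfkl), muscle (Pfkm) and platelet (Pfkp) subunits. Pfkp had values of 9.83 and 9.57 in the arrays labelled KO, both above the 9.27 and 9.11 in the arrays labelled WT. Its means were 9.70 ± 0.18 in the arrays labelled KO and 9.19 ± 0.11 in the arrays labelled WT (SD, n = 2 each), a difference of 0.51 (SE 0.15, 95% interval 0.12 to 0.90). That is a 1.42-fold higher level (1.08 to 1.87), with an unadjusted limma p of 0.0202 and an adjusted p of 0.394, so that Pfkp did not pass. The difference stayed between 0.38 and 0.64 with any 1 array left out.

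Pfkm had 6.43 and 6.50 in the arrays labelled KO, also above both values of 6.26 and 6.31 in the arrays labelled WT, a difference of 0.18 (SE 0.11). Pfkl had 7.09 and 7.19 in the arrays labelled KO and 7.18 and 7.04 in the arrays labelled WT, with overlap. The balance of Pfkp against Pfkl within an array, as a log2 difference of their values, was 2.74 and 2.38 in the arrays labelled KO and 2.09 and 2.07 in the arrays labelled WT. It did not overlap and was 0.48 higher in the arrays labelled KO (exact permutation test, two-sided, p = 0.333, the smallest that 2 arrays against 2 can give).

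The bifunctional PFKFB enzymes make or break down fructose 2,6-bisphosphate, the main activator of phosphofructokinase. Pfkfb3, the form with the strongest kinase activity, had values of 6.88 and 6.70 in the arrays labelled KO, both below the 7.00 and 6.91 in the arrays labelled WT, a difference of -0.17 (SE 0.13). Pfkfb4 had 5.39 and 5.49 in the arrays labelled KO against 5.38 and 5.33 in the arrays labelled WT, without overlap but only 0.09 apart on average (SE 0.10). The cluster that Pfkfb2 shares with C4bp-ps1 had 5.69 and 5.54 in the arrays labelled KO and 5.78 and 5.43 in the arrays labelled WT.

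**Figure D2:**
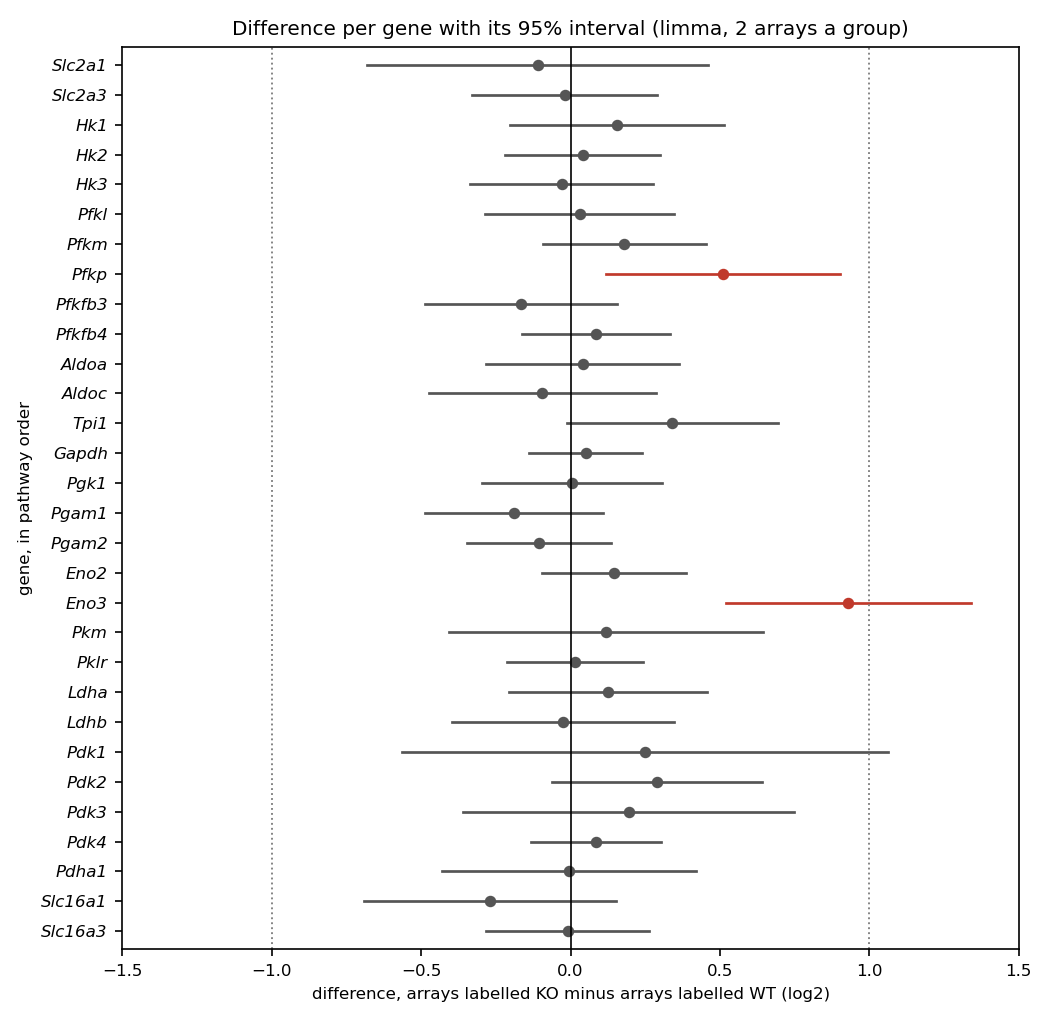
Difference of arrays labelled KO minus arrays labelled WT (log2, x axis) for each gene (y axis, in pathway order), with the 95% interval from limma as a bar and dotted lines at a 2-fold difference. Eno3 (0.93) and Pfkp (0.51), in red, have an unadjusted p under 0.05 and intervals above 0, and no gene passed the adjusted threshold.

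Aldolase splits fructose bisphosphate into triose phosphates. Aldoa, the muscle and general form, had values of 7.00 and 6.81 in the arrays labelled KO and 6.83 and 6.90 in the arrays labelled WT. Aldoc, the brain form, had 5.15 and 5.52 in the arrays labelled KO, on either side of the 5.38 and 5.48 in the arrays labelled WT. Neither gene separated the groups.

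Tpi1, which interconverts the triose phosphates, had values of 9.44 and 9.57 in the arrays labelled KO, both above the 9.25 and 9.08 in the arrays labelled WT. Its means were 9.51 ± 0.09 in the arrays labelled KO and 9.17 ± 0.12 in the arrays labelled WT (SD, n = 2 each). The difference was 0.34 (SE 0.14, 95% interval -0.01 to 0.69), a 1.27-fold higher level (0.99 to 1.62) with an unadjusted limma p of 0.0564 and an adjusted p of 0.498. With any 1 array left out the difference lay between 0.26 and 0.43. Eno3, Pfkp and Tpi1 were the 3 members (10.0%) that differed by at least 0.3 on the log2 scale, against 13.7% of all genes and 22.1% of the genes at or above the median gene.

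In the middle of the lower pathway differences were small. The cluster named Gapdh, the oxidising step that is widely used as a reference gene, had values of 15.31 and 15.23 in the arrays labelled KO and 15.18 and 15.26 in the arrays labelled WT. Its difference was 0.05 (SE 0.07, 95% interval -0.14 to 0.24) and turned to -0.15 after a further quantile normalization. A cluster shared by Gapdh and the pseudogene Gm7336 had 17.15 and 17.04 in the arrays labelled KO and 16.86 and 17.04 in the arrays labelled WT.

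Pgk1, the first ATP-yielding step, had values of 11.11 and 11.09 in the arrays labelled KO and 11.15 and 11.04 in the arrays labelled WT. The cluster that carries this symbol has an identifier of chromosome 12, whereas RefSeq places Pgk1 on chromosome X. It was the 1 member so placed, among 134 of 30222 clusters, so this value may not be that of the gene itself.

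Pgam1, the general phosphoglycerate mutase, had values of 11.15 and 11.04 in the arrays labelled KO, both below the 11.28 and 11.29 in the arrays labelled WT, a difference of -0.19 (SE 0.12, 95% interval -0.49 to 0.11). A cluster shared with the pseudogene Pgam1-ps2 had 13.73 and 13.59 in the arrays labelled KO and 13.99 and 14.18 in the arrays labelled WT. A further cluster, shared with Gm8910, had 11.26 and 10.74 in the arrays labelled KO and 11.36 and 11.40 in the arrays labelled WT. All 3 clusters that carry Pgam1's name were thus lower in both arrays labelled KO than in both labelled WT, although their probes may read the same transcripts. Pgam2, the muscle mutase, had 4.13 and 3.95 in the arrays labelled KO and 4.12 and 4.17 in the arrays labelled WT, with overlap.

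Enolase makes phosphoenolpyruvate. Eno3 is known as the muscle enolase, Eno2 as the neuronal one and Eno1, not analysed here, as the general form. Eno3 had values of 10.19 and 10.10 in the arrays labelled KO, both above the 9.05 and 9.38 in the arrays labelled WT. Its means were 10.15 ± 0.06 in the arrays labelled KO and 9.22 ± 0.23 in the arrays labelled WT (SD, n = 2 each), and the gap between groups exceeded the spread within either. The difference was 0.93 (SE 0.16, 95% interval 0.52 to 1.34), a 1.91-fold higher level (1.43 to 2.53). Its unadjusted limma p was 0.00194 and its adjusted p 0.286, so that Eno3 did not pass. With any 1 array left out the difference stayed between 0.77 and 1.10, and when only genes at or above the median gene were tested the adjusted limma p was 0.154.

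RefSeq (GRCm38.p6) places Eno3 at chr11:70653125-70662513, where its span overlaps that of Pfn1 (chr11:70651844-70656799), the actin-binding protein profilin. Pfn1 had values of 14.85 and 14.99 in the arrays labelled KO and 14.78 and 14.87 in the arrays labelled WT, with overlap between the groups. Cluster coordinates and probe sequences were not available, so whether the Eno3 cluster also reads Pfn1 transcripts was not tested. The next genes on either side, chosen after Eno3's values were seen, differed less than Eno3. Spag7 had 7.88 and 7.75 in the arrays labelled KO and 7.71 and 7.82 in the arrays labelled WT, whereas the ubiquitin ligase gene Rnf167 had 9.47 and 9.31 in the arrays labelled KO, above the 9.19 and 9.14 in the arrays labelled WT. Pitrm1, which overlaps the end of Pfkp (chr13:6579874-6649060), had 9.24 and 9.29 in the arrays labelled KO and 9.21 and 9.45 in the arrays labelled WT. Eno2 had 5.12 and 5.07 in the arrays labelled KO, just above the 4.89 and 5.01 in the arrays labelled WT, a difference of 0.15 (SE 0.09).

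**Figure D3:**
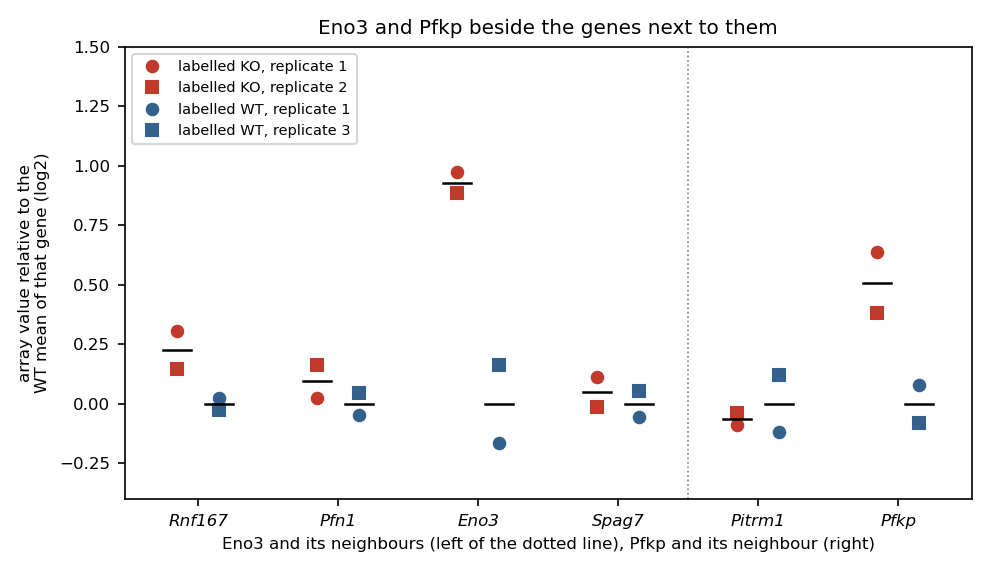
Array values (log2, y axis) relative to the mean of the arrays labelled WT for each gene (x axis), with arrays labelled KO in red left of arrays labelled WT in blue and group means as bars. Eno3 stands 0.93 and Pfkp 0.51 above the WT mean, while Pfn1, Spag7 and Pitrm1 overlap between groups and Rnf167 stands 0.23 above.

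Pyruvate kinase makes pyruvate and the second ATP of the lower pathway. Pkm had values of 9.49 and 9.12 in the arrays labelled KO and 8.99 and 9.38 in the arrays labelled WT, and the arrays of each group lay further apart than the group means. Its M1 and M2 splice forms share the gene, and 1 cluster value does not separate them. Pklr had 5.14 and 5.19 in the arrays labelled KO and 5.14 and 5.16 in the arrays labelled WT.

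Lactate dehydrogenase interconverts pyruvate and lactate. Ldha, the subunit that favours lactate formation, had values of 10.03 and 9.87 in the arrays labelled KO, just above the 9.81 and 9.84 in the arrays labelled WT, a difference of 0.13 (SE 0.13, 95% interval -0.21 to 0.46). Ldhb, the heart subunit, had 9.17 and 8.93 in the arrays labelled KO and 9.03 and 9.12 in the arrays labelled WT. The log2 difference of Ldhb minus Ldha was -0.86 and -0.94 in the arrays labelled KO and -0.78 and -0.72 in the arrays labelled WT, which did not overlap but differed by only -0.15 (exact permutation p = 0.333, two-sided).

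Monocarboxylate transporters carry lactate across the cell membrane. Slc16a1 (MCT1) had values of 7.12 and 6.99 in the arrays labelled KO, both below the 7.51 and 7.14 in the arrays labelled WT. Its difference of -0.27 (SE 0.17, 95% interval -0.69 to 0.15) was the most negative of the 30 members, and it was -0.09 without WT replicate 1. Slc16a3 (MCT4), the exporter typical of glycolytic cells, had 5.24 and 5.33 in the arrays labelled KO and 5.38 and 5.21 in the arrays labelled WT, with overlap and a value near the median gene.

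Pyruvate dehydrogenase kinases phosphorylate and switch off pyruvate dehydrogenase, and Pdk1 is a known target of HIF-1. Pdk1 had values of 6.68 and 6.75 in the arrays labelled KO and 6.95 and 5.98 in the arrays labelled WT. The WT values thus lay on either side of the KO pair, with the widest gap within a group among the members, and the difference ran from -0.24 without WT replicate 3 to 0.74 without WT replicate 1. Pdk2 had 7.84 and 8.07 in the arrays labelled KO, both above the 7.65 and 7.68 in the arrays labelled WT, a difference of 0.29 (SE 0.14, 95% interval -0.06 to 0.64).

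Pdk3 had 9.60 and 9.48 in the arrays labelled KO and 9.06 and 9.63 in the arrays labelled WT, the WT arrays lying outside the KO pair on both sides. Pdk4, the form known to respond to fasting and fatty acids, had 3.41 and 3.53 in the arrays labelled KO and 3.44 and 3.33 in the arrays labelled WT. All 4 kinases had a mean difference above 0, from 0.09 to 0.29, but Pdk2 was the 1 kinase whose groups did not overlap. A difference above 0 was found for 51.1% of all genes and 58.0% of the genes at or above the median gene. With 1 array left out, the difference fell to -0.24 for Pdk1 and -0.09 for Pdk3. Pdha1, the catalytic subunit of pyruvate dehydrogenase and the kinases' substrate, had 9.55 and 9.18 in the arrays labelled KO. It had 9.38 and 9.36 in the arrays labelled WT, a difference of -0.01 (SE 0.17).

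The balance between isozymes was compared within each array for 12 pairs, some of which share a gene, and 2 further pairs lacked Eno1. The log2 difference did not overlap between groups for 6 pairs. Besides Pfkp minus Pfkl and Ldhb minus Ldha, these were Pfkm minus Pfkl (0.15 higher in the arrays labelled KO), Pfkfb4 minus Pfkfb3 (0.25 higher), Slc16a3 minus Slc16a1 (0.26 higher) and Pgam2 minus Pgam1 (0.09 higher). For all 6 the exact two-sided permutation p was 0.333, and no pair can pass a threshold of 0.05 with this design. Single genes separated in this way for 38.6% of all genes and 45.3% of those at or above the median gene. The share among other gene pairs was not computed, so the count of 6 is not read as a shift in balance. Pgam2 overlapped on its own and lay below the median gene. Hexokinase 2 minus hexokinase 1 was -2.95 and -2.84 in the arrays labelled KO and -2.57 and -2.99 in the arrays labelled WT, with overlap.

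**Figure D4:**
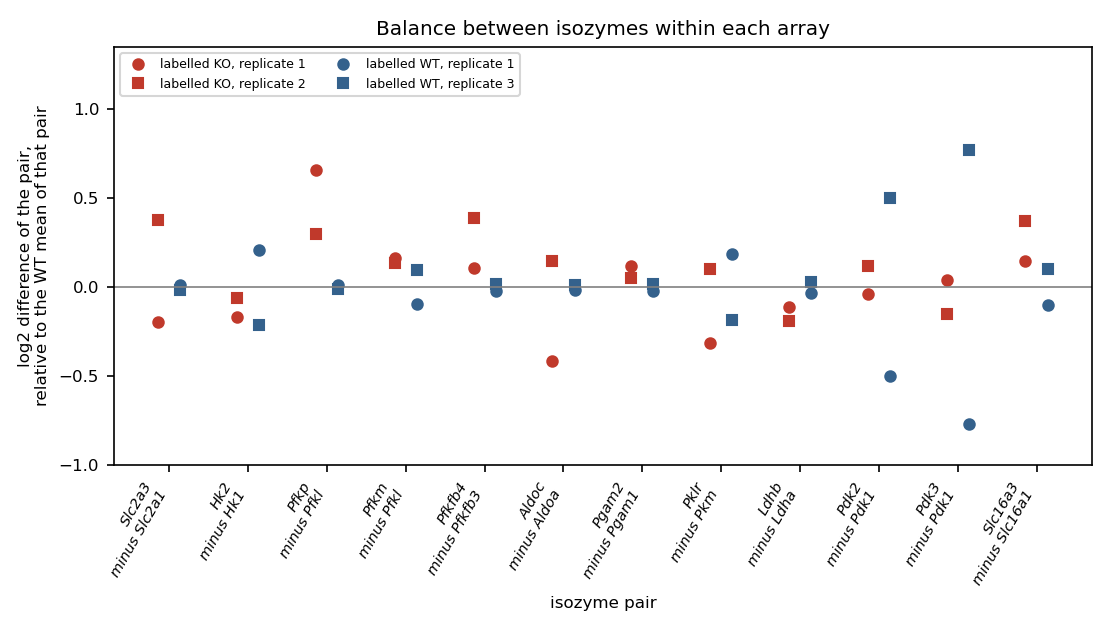
Log2 difference between 2 isozymes within each array, relative to the WT mean of that pair (y axis), for 12 pairs (x axis), with arrays labelled KO in red left of arrays labelled WT in blue. Pfkp minus Pfkl shows the largest separation (0.48 between group means), and the pairs with Pdk1 show the wide gap between the WT arrays.

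None of the listed genes around the pathway passed the adjusted threshold. Among 8 measured genes of pyruvate dehydrogenase and mitochondrial pyruvate handling, 5 stood higher and 3 lower in KO-labelled arrays. Pdhb, the second subunit of the dehydrogenase, had 12.78 and 12.85 in the arrays labelled KO and 12.56 and 12.37 in the arrays labelled WT, a difference of 0.35 (SE 0.12) with an unadjusted limma p of 0.0281 and an adjusted p of 0.420. Dld, the subunit shared with other dehydrogenases, had the opposite sign at -0.27 (SE 0.14). Among 6 genes of the pentose phosphate pathway, 5 were higher and 1 lower, with Pgls, the lactonase, at 0.24 (SE 0.11), and among 6 genes of gluconeogenesis 3 were higher and 3 lower. Of 19 other transporters and side-step enzymes, 10 were higher and 8 lower. Pgk2, the testis phosphoglycerate kinase, was at 0.25 (SE 0.11) and Adpgk, an ADP-dependent glucokinase, at 0.32 (SE 0.16). The transporter gene Slc16a7 had the opposite sign at -0.155 (SE 0.09), without overlap. The mean of Pgk2 lay at percentile 2.13 of all genes, among the lowest values, so its difference is not read as expression. Medians of these 4 lists lay between 0.015 and 0.0875 on the log2 scale. That compares with 0.005 for all genes and 0.045 for the genes at or above the median gene. Only the pentose phosphate pathway (0.0875) had a median above 0.045.

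Among 21 measured regulators of glycolytic genes, 12 were higher and 9 lower. Their median was 0.02, against 0.005 for all genes and 0.045 for the genes at or above the median gene. Hif1a, the oxygen-regulated subunit of HIF-1, had 12.20 and 12.18 in the arrays labelled KO and 12.27 and 12.12 in the arrays labelled WT, a difference of -0.01 (SE 0.11, 95% interval -0.29 to 0.28). Myc had 10.84 and 10.76 in the arrays labelled KO, above the 10.69 and 10.54 in the arrays labelled WT, a difference of 0.19 (SE 0.13). Max, the partner of Myc, was at 0.33 (SE 0.12) with an unadjusted limma p of 0.0461 and an adjusted p of 0.476. Txnip, a restraint on glucose uptake, was at 0.22 (SE 0.10) and Egln1 at 0.41 (SE 0.20). Without overlap 5 of the 21 were higher and 3 lower (Akt2 -0.165, Prkaa1 -0.17 and Mycn -0.07). Among all genes 21.1% were higher and 17.5% lower in that way. For genes at or above the median gene the shares were 29.1% and 16.2%.

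Of 14 hypoxia-inducible factor targets outside glycolysis, 10 were higher and 3 lower, and 6 were higher and 0 lower without overlap, where 21.1% of all genes and 29.1% of the genes at or above the median gene were higher in that way. Their median was 0.10 on the log2 scale, against 0.005 for all genes and 0.045 for all genes at or above the median gene. The list was chosen with earlier results of these data known, so these values describe it and do not test it. Ankrd37 had 7.64 and 7.94 in the arrays labelled KO and 6.75 and 6.93 in the arrays labelled WT, a difference of 0.95 (SE 0.16) with an unadjusted limma p of 0.00158 and an adjusted p of 0.270. The collagen prolyl hydroxylase gene P4ha1 was at 0.38 (SE 0.15) and the histone demethylase gene Kdm3a at 0.31 (SE 0.13). These 3 had the smallest p of the list. The groups overlapped for Ddit4 (0.13), Adm (0.105), Bnip3l (0.08), Vegfa (0.01), P4ha2 (-0.005), Ero1a (-0.035) and Car9 (-0.05). Higd1a, with overlap as well, had equal group means.

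Markers of other cells were read on the same arrays, and none passed the adjusted threshold. Of 7 B and plasma cell markers, 3 were higher (Ighg2b, Jchain and Mzb1) and 4 lower in KO-labelled arrays. The log2 of their summed level was 9.33 to 9.35 in the arrays labelled KO and 8.73 to 8.89 in the arrays labelled WT. Ighg2b had 7.51 and 7.36 in the arrays labelled KO and 5.62 and 5.63 in the arrays labelled WT, a difference of 1.81. The B cell markers Ms4a1 and Cd79a lay below the median gene on every array, whereas Cd79b lay above it, with 7.42 and 7.64 in the arrays labelled KO and 7.53 and 7.91 in the arrays labelled WT. Of 6 natural killer and CD8 T cell markers, 4 were higher and 2 lower, with summed levels of 12.23 to 12.89 in the arrays labelled KO and 11.20 to 11.98 in the arrays labelled WT. That sum was carried by Nkg7 (11.58 and 12.31 in the arrays labelled KO, 10.48 and 11.09 in the arrays labelled WT) and Cd8b1. The groups overlapped for Cd8b1, with 10.71 and 11.26 in the arrays labelled KO and 9.74 and 10.78 in the arrays labelled WT. Cd8a, Ncr1, Klrb1c and Klrd1 lay below the median gene on average.

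Of 8 myeloid markers, 1 was higher and 7 lower, with overlapping sums of 7.58 to 7.66 in the arrays labelled KO and 7.53 to 7.73 in the arrays labelled WT. The higher one was Cd68 (0.48), which lay above the median gene. Without overlap 4 were lower (Lyz2, S100a8, Cd14 and Adgre1), all below the median gene. Of 3 measured erythroid markers, 2 were higher and 1 lower, all below the median gene. Of 7 regulatory T cell markers, 5 were higher and 2 lower. Their summed levels were 18.05 to 18.15 in the arrays labelled KO and 17.84 to 17.89 in the arrays labelled WT. That sum was led by Cd3e (16.91 and 16.82 in the arrays labelled KO, 16.28 and 16.32 in the arrays labelled WT). Cd4 and Cd3g were higher by 0.265 and 0.095, without overlap. Il2ra (0.015), Ctla4 (0.045) and Tnfrsf18 (-0.075) overlapped between groups, and Ikzf2 (-0.155) was lower without overlap. The part of these markers in the Eno3 and Pfkp values was not tested, and in sorted bulk cells a different share of cells and a different amount of RNA per cell cannot be told apart.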

How the data were processed

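Gene expression was measured on 4 arrays of sorted splenic regulatory T cells. The authors deposited 1 table of log2 values for 65528 transcript clusters, made with RMA and Transcriptome Analysis Console per the submitters' processing notes, which give no versions. The log base is inferred from RMA and from the range of 1.82 to 19.38. Array medians were 4.65 and 4.69 (KO) and 4.72 and 4.67 (WT). The settings of RMA, its background step included, were not given in the sources used here, nor were build and batches. The labels' extract protocol describes real-time PCR.

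Of the clusters, 30390 had 1 platform gene symbol, 2127 several and 33011 were not listed. Of the single symbols, 1126 were updated through RefSeq (GRCm38.p6). For 420 genes with several clusters the one with the highest mean was kept. Groups were taken from the sample titles. Differences were tested in R 4.3.3 by limma 3.58.1 (lmFit and trended eBayes, two-sided p, Benjamini-Hochberg over 29860 genes, threshold 0.05). The procedure was checked on simulated data, with seeded differences larger than that of any member. It was not checked at the size of the members' differences. Prior degrees of freedom were 3.20. Per-array isozyme differences were compared by exact permutation. The members and all gene lists were chosen with earlier results of these data known. Every member is named, with full statistics at an unadjusted p under 0.05 or a difference of at least 0.3. Other lists give up to 3 genes of smallest p, plus Hif1a, Myc and some further genes for contrast. Alternatives covered normalization, dim genes, clusters, variance model and left-out arrays. The 4 sample columns were all used. Neighbouring genes were named after their values were seen.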

Additional observations from a re-analysis of the deposited data

How the results depend on the processing

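No glycolysis or lactate gene passed under any of the 11 alternatives run, in which the smallest limma adjusted p of a member lay between 0.154 and 0.796, and the count at an unadjusted limma p under 0.05 was 1 to 3. Over all genes, where 2 passed, the count was 1 after median-centring, 14 among genes at or above the median gene, and 0 after a further quantile normalization, with no intensity trend or with robust variance settings; with 1 array left out it was 0 to 0. The members' median of 0.04 ran from 0.0225 to 0.0925 with 1 array left out and from 0.0056 to 0.04 elsewhere, including 3 versions added after seeing the data (without Pgk1, with shared clusters, only members above the median gene). Eno3 and Pfkp kept their sign throughout, as did Tpi1, Pfkm, Pdk2, Pgam1 and Slc16a1 among others. For Eno3 and Pfkp, leaving out 1 array could not turn it, because both KO values lay above both WT values. The gene filter, the cluster choices and the variance settings left their differences at 0.93 and 0.51. Signs turned for Pfkl (-0.0062), Gapdh (-0.1512) and Pgk1 (-0.0838) after quantile normalization and for Pgk1 (-0.01) after median-centring; for these the cause was not tested. With 1 array left out the ranges that crossed 0 were Slc2a1 -0.415 to 0.195, Slc2a3 -0.05 to 0.01, Hk2 -0.045 to 0.125, Hk3 -0.13 to 0.07, Pfkl -0.04 to 0.1, Aldoa -0.055 to 0.135, Aldoc -0.28 to 0.09, Pgk1 -0.05 to 0.06, Pkm -0.075 to 0.315, Pklr -0.01 to 0.04, Ldhb -0.145 to 0.095, Pdk1 -0.235 to 0.735, Pdk3 -0.09 to 0.48, Pdha1 -0.19 to 0.18, Slc16a3 -0.095 to 0.075, Slc2a3 minus Slc2a1 -0.195 to 0.375, Hk2 minus Hk1 -0.325 to 0.095, Aldoc minus Aldoa -0.415 to 0.145, Pklr minus Pkm -0.315 to 0.105, Pdk2 minus Pdk1 -0.46 to 0.54 and Pdk3 minus Pdk1 -0.825 to 0.715. No paired analysis was possible because the groups share only replicate number 1. With 2 arrays a group, the median SE over all genes was 0.12 and the 95% interval excluded 0 for 2 of the 30 members.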

Other observations

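Genes of T cell activation, which precedes a rise of glycolysis in T cells, were measured for 17 of 18 listed members. In the arrays labelled KO 13 were higher and 4 lower, with a median difference of 0.10 on the log2 scale, against 0.005 for all genes and 0.045 for genes at or above the median gene, where all 17 lay. Without overlap between the groups 7 were higher and 2 lower (Nr4a3 and Egr3). Among all genes 21.1% were higher and 17.5% lower in that way. Among genes at or above the median gene the shares were 29.1% and 16.2%. The list was chosen with earlier results of these data known, so these values describe it and do not test it. Cd69, an early activation marker, had 14.93 and 14.65 in the arrays labelled KO and 14.35 and 14.32 in the arrays labelled WT, a difference of 0.46 (SE 0.11, unadjusted limma p 0.00982, adjusted p 0.348). Mki67, expressed in dividing cells, had 8.69 and 8.90 in the arrays labelled KO and 7.17 and 8.09 in the arrays labelled WT, a difference of 1.17 (SE 0.32, unadjusted limma p 0.0133, adjusted p 0.366). Nr4a2, a nuclear receptor gene induced by T cell receptor signals, had 8.36 and 7.95 in the arrays labelled KO and 7.89 and 7.48 in the arrays labelled WT, a difference of 0.47 (SE 0.22, unadjusted limma p 0.0790, adjusted p 0.546). Of the same list, Top2a and Cdk1 were at 0.10 and 0.115, both with overlap between the groups. Il2ra (0.015), Tnfrsf9 (-0.02), Egr1 (-0.045), Egr2 (0.01), Slc7a5 (0.005) and Slc1a5 (0.02) overlapped as well. None of the 17 passed the adjusted threshold.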
